A study of Mus musculus with 9 samples.

Results

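The metalloproteinases and their inhibitors were read in myeloid cells of a wounded mouse paw, sorted by surface Ly6C. The set held every measured gene whose symbol names a matrix metalloproteinase (Mmp), a tissue inhibitor of metalloproteinases (Timp) or a secreted ADAMTS proteinase (Adamts). These were 44 of the 22180 genes measured, with 22 Mmp, 4 Timp and 18 Adamts genes. Male C57BL/6J mice, 8 weeks old, received an incision in the plantar hindpaw, and cells were taken 24 h later. The sort kept CD11b+ cells, which are myeloid, and left out Ly6G+ cells, which are mostly neutrophils. They fell into a Ly6C high, a Ly6C medium and a Ly6C low gate with 3 Affymetrix arrays each. All samples were collected on 1 day and came from wounds, and the RNA was amplified before hybridization.

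Matrix metalloproteinases are zinc-dependent enzymes made as inactive precursors, and together they can cut most proteins of the extracellular matrix. The gelatinases (Mmp2 and Mmp9) cut denatured collagen and basement membrane collagen, and collagenases such as Mmp8 and Mmp13 open the intact triple helix. The stromelysin Mmp3 and the macrophage elastase Mmp12 have wide substrate ranges. The Timp proteins block the active site of these enzymes, and the ADAMTS proteinases process procollagens and cut proteoglycans such as versican. In skin wounds, fibroblasts, keratinocytes, neutrophils and macrophages each make a share of these enzymes.

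The 9 arrays had medians between 3.93 and 4.10 on the log2 scale, and the transcript of the sorted protein, Ly6c2, stood at 12.27, 11.22 and 8.33 in high, medium and low. No array was left out. Low replicate 3 stood apart from the other low arrays toward the high gate, with Ly6c2 at 9.40 against 7.69 and 7.90, and a mean of 8.36 against 7.67 and 7.82 over the 9 measured classical monocyte markers. Ly6c2 is among those 9 markers, so its value also enters that mean. For Mmp8, Mmp9, Mmp13, Mmp14 and Timp3, results are given with and without it. Fibroblast marker genes were measured in every gate and were brightest in Ly6C high. The log2 of their summed intensity (11 of 11 markers measured) ran from 11.62 to 12.78 on the high arrays, from 9.66 to 9.71 on medium and from 8.76 to 8.90 on low, although all cells had been sorted for CD11b. Neutrophil markers (12 of 12 measured) ran from 9.07 to 9.85 on high, from 9.70 to 11.07 on medium and from 9.28 to 11.40 on low, highest on replicate 3 of medium and of low. Ly6g, the marker the sort had gated out, was above the array median on only 1 array. The neutrophil granule genes Camp, Ltf and Ngp were above it on 0 arrays, whereas S100a8, S100a9, Csf3r and Cxcr2 were above it on all 9, Padi4 on 8, Retnlg and Mpo on 6 and Elane on 2. In such sorted pools, fewer cells of a type and less RNA per cell cannot be told apart. The labels do not say that the replicates of a gate were separate animals, so a p-value here speaks only of the scatter among these arrays, and that scatter may be technical.

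Members of the set that lie side by side in the genome did not share 1 pattern over the gates. On chromosome 9, 10 Mmp genes follow each other with no other protein-coding gene between them in RefSeq (GRCm38.p6), in the order Mmp13, Mmp12, Mmp1b, Mmp3, Mmp1a, Mmp10, Mmp8, Mmp27, Mmp20 and Mmp7. The sequences of some of these promoters are shown because Mmp12 and Mmp8 of this cluster differed in opposite directions between low and high. The Mmp12 call was lost when any 1 of 5 arrays was left out. Each is the 100 bases before a RefSeq transcription start (GRCm38.p6, plus strand), with the letters of the AP-1 site TGANTCA and of the TATA box TATAAA in capitals.
Mmp13, chr9:7272414-7272513: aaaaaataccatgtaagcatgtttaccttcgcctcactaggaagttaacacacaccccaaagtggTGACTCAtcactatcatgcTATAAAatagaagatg
Mmp12, upstream start, chr9:7344297-7344396: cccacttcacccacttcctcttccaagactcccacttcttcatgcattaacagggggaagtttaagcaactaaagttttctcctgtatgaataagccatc
Mmp12, downstream start, chr9:7347274-7347373: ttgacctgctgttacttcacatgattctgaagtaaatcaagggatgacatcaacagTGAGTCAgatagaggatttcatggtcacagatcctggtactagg
Mmp3, chr9:7445722-7445821: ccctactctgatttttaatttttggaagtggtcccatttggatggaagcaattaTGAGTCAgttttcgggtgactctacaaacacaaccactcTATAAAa
Mmp10, chr9:7502242-7502341: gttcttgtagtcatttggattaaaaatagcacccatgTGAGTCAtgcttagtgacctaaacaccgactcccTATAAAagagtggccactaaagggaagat
Mmp8, chr9:7558329-7558428: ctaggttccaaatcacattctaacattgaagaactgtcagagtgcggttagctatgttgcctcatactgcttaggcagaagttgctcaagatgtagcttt

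Both strands were searched, and TGANTCA reads the same on both. It was found before 8 of the 10 genes of the cluster, all but Mmp8 and Mmp27. For Mmp12 it stood only before the downstream start, and for Mmp7 only before the upstream start. The matches began 35 to 95 bases before the start. Among the other members, 20 had a promoter in the table, and 0 of those held it. Over all 32851 promoters of the same length 2.73% held the AP-1 letters and 5.56% the TATA letters, against 24.2% and 27.3% of the 33 promoter entries of the members. The TATA letters stood before 7 genes of the cluster and before Adamts1 and Mmp21 outside it. These letters are a description of the sequence, and binding of a factor there was not measured.

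**Figure D1:**
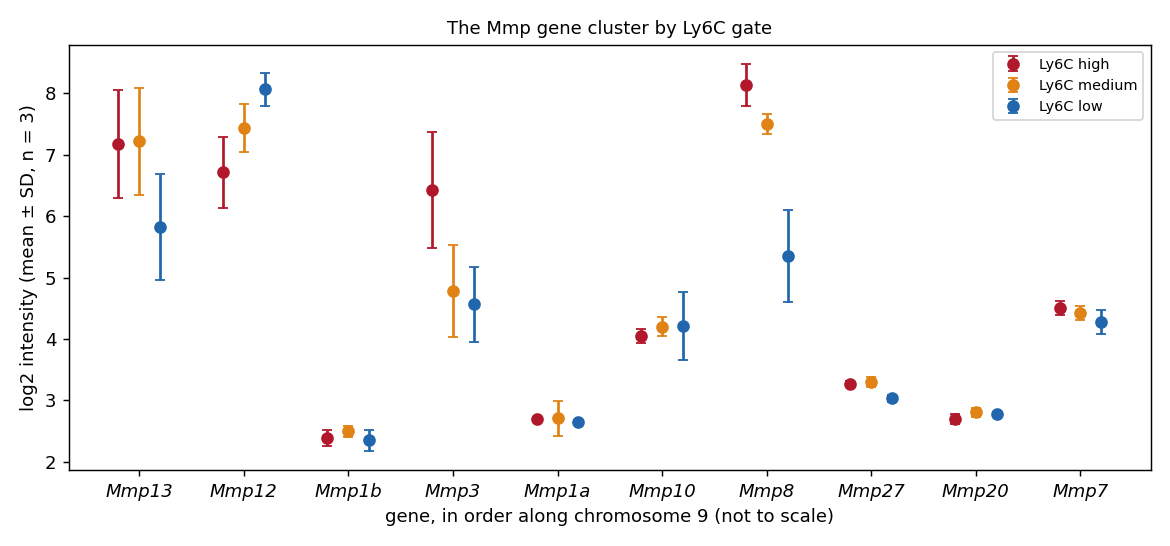
Mean log2 intensity of the 10 Mmp genes of the chromosome 9 cluster in the Ly6C high, medium and low gates, with genes on the x axis in chromosomal order and bars for the SD over 3 arrays. Mmp12 was higher in low (8.07) than in high (6.71) and Mmp8 lower (5.35 against 8.14), while the means of Mmp1b, Mmp1a, Mmp27 and Mmp20 all lay under the array medians; levels may be compared between gates within a gene, not between genes.

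Between Ly6C low and Ly6C high, 6 of the 44 members differed (limma, Benjamini-Hochberg adjusted p under 0.05 over all genes), which is 13.6% of the set against 5.67% of all genes tested. Mmp12 and Timp2 were higher in low (3.35% of all genes were), and Mmp2, Mmp8, Mmp19 and Adamts1 were lower (2.32% of all genes were). Of these, Mmp2, Mmp8 and Timp2 passed the threshold without any 1 of the 9 arrays, whereas each of the other calls was lost without at least 4 arrays in turn. The median log2 difference of the set was -0.0636, against 0.0116 for all genes. The arrays of low and high did not overlap for 14 members (31.8%, against 20.1% of all genes). In the F test over the 3 gates 6 members passed (13.6%, against 4%), namely Mmp2, Mmp8, Mmp19, Mmp25, Adamts1 and Timp2.

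**Figure D2:**
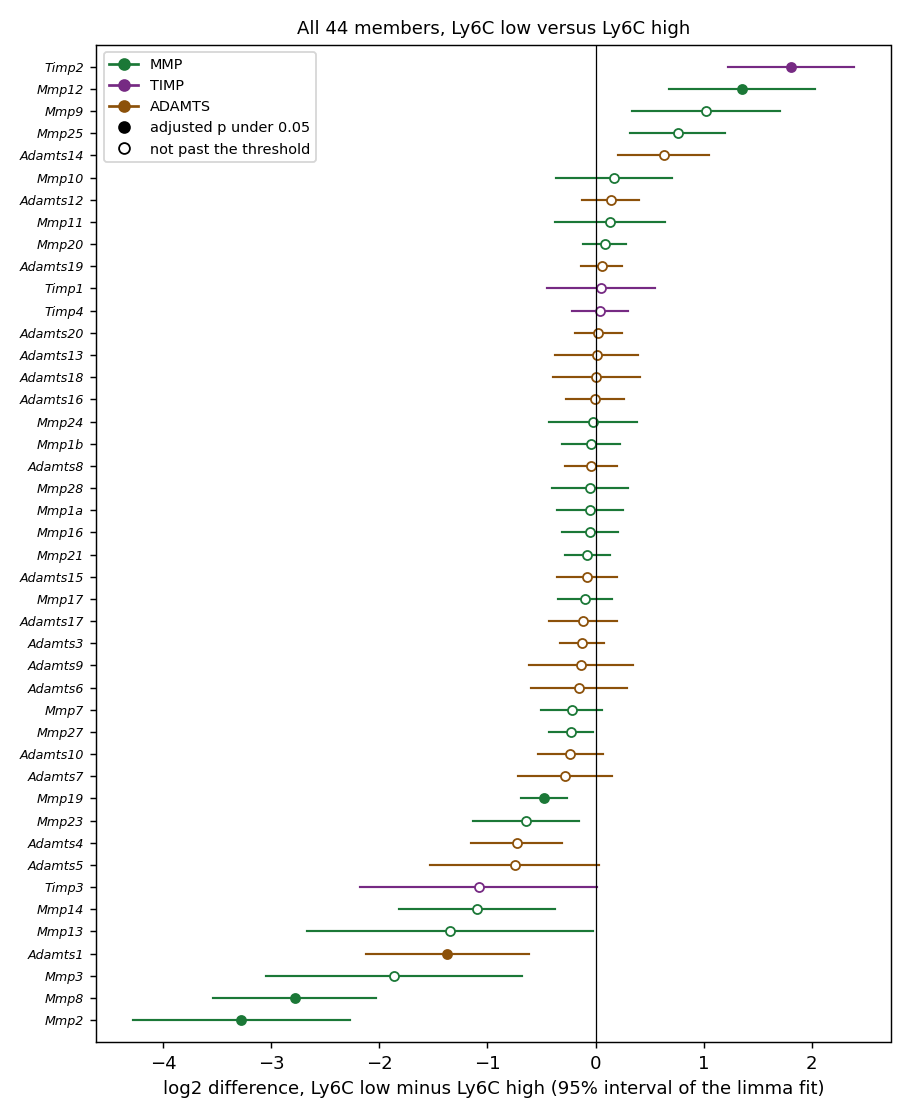
Log2 difference of Ly6C low minus Ly6C high for each of the 44 members (points) with the 95% interval of the limma fit (lines), coloured by family and filled where the adjusted p was under 0.05. The 6 filled points run from Mmp2 at -3.28 to Timp2 at 1.81, and the open points lie between Mmp3 at -1.87 and Mmp9 at 1.02.

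The members called in any comparison lay above the array median on each of the 9 arrays. Of the 44 genes, 18 lay above the median of all probe sets on each of the 9 arrays, 9 on some arrays and 17 on none. The last group held Timp4, 7 Mmp genes and 9 Adamts genes. Limma called 0 of these 17 in low against high, medium against high and low against medium, where 5.67%, 0.239% and 1.93% of all genes were called. In the same order 1, 0 and 1 of the 17 had an unadjusted p under 0.05, against 17.9%, 7.53% and 14.1% of all genes. A low value on such an array cannot be read as absence of the transcript.

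The gelatinase Mmp2 showed the largest difference of the set. It stood at 8.95, 7.75 and 7.0 on the 3 Ly6C high arrays, at 5.10, 5.39 and 5.52 in medium and at 4.94, 4.0 and 4.91 in low. Every high array was above every other array, and high had the widest spread of the gates (SD 0.98). Low was 9.70-fold below high (log2 difference -3.28, SE 0.44, limma adjusted p = 0.00393). Medium was 5.91-fold lower than high (limma adjusted p = 0.0814), and low and medium differed by -0.72 (limma adjusted p = 0.544). Without high replicate 3 the difference of medium from high passed the threshold (limma adjusted p = 0.0284).

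Mmp3 and Adamts1, which connective tissue cells also make, had their highest means in Ly6C high. Mmp3, the stromelysin that also activates other Mmp precursors, was at 7.17, 5.37 and 6.75 in high, 4.66, 4.09 and 5.58 in medium and 4.75, 3.88 and 5.05 in low. Low and high did not overlap, but the difference of -1.87 missed the threshold (limma adjusted p = 0.0807, and 0.0339 without high replicate 2). Adamts1, a proteinase that cuts versican and aggrecan, stood at 7.24, 6.42 and 6.51 in high, 5.54, 4.81 and 4.85 in medium and 5.85, 4.70 and 5.51 in low. The low gate was 2.58-fold below the high gate (limma adjusted p = 0.0484). Leaving out any array took Adamts1 over the threshold (highest limma adjusted p 0.133, without high replicate 1), as did a fit of low and high alone (0.104).

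The aggrecanases Adamts4 and Adamts5 gave smaller values. Adamts4 was at 5.54, 5.51 and 4.88 in high against 4.37 to 4.78 in medium and 4.48 to 4.67 in low, so that high overlapped with neither (low versus high -0.73, limma adjusted p = 0.0588). With quantile normalization repeated, or with the arrays centred, Adamts4 passed the threshold. Adamts5 was bright on high replicate 1 alone (4.86, against 2.97 to 3.66 on the other arrays), and its difference of -0.75 has a 95% interval from -1.53 to 0.03.

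Fibroblast markers were also brightest in high, but not all of these genes followed them from medium to low. Mmp2 and Mmp3 were lower in low than in medium (-0.72 and -0.22), whereas Adamts1 (0.29) and Timp3 (0.69) were higher. Adamts4 (0.04) and Adamts5 (-0.003) hardly differed, and none of these differences passed the threshold. Of the 11 markers, 9 were lower in low than in high and 0 higher, with a median log2 difference of -3.00, and 6 were lower in medium than in high. Calls between medium and high were fragile: over all genes 53 were made, but 2 without medium replicate 1. With only those gates in the fit 1 gene was called, so most of the 6 were lost in those fits. Dcn, which encodes the collagen-binding proteoglycan decorin, averaged 10.70 in high, 8.34 in medium and 7.35 in low, and the collagen gene Col1a2 averaged 10.27, 7.26 and 5.74. Within the high gate, replicate 1 had the highest summed fibroblast level (12.78) and the highest Mmp2 (8.95), and replicate 3 the lowest of both (11.62 and 7.0). Adamts4 and Adamts5 followed that order. Mmp3 and Adamts1 did not, with their lowest high values on replicate 2, and Timp3 was highest there (6.99). Endothelial markers (8 of 8 measured) also lay lower in low than in high, with a median of -0.514, 1 called lower (Kdr, a VEGF receptor) and 0 higher. Their log2 sums ran from 8.39 to 8.97 on high, from 7.95 to 8.04 on medium and from 7.66 to 8.29 on low. The part of fibroblast or endothelial RNA in the differences of Mmp2, Mmp3, Adamts1, Adamts4, Adamts5 and Timp3 was not tested.

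**Figure D3:**
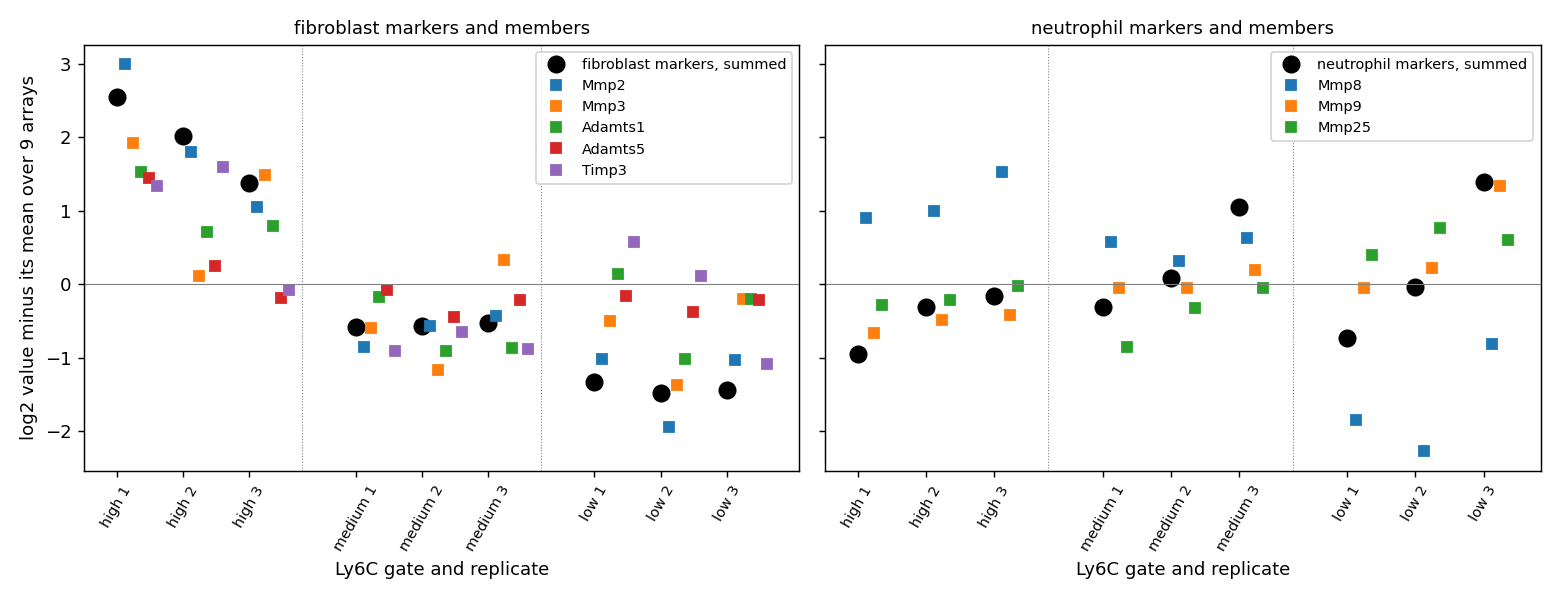
Log2 values minus their mean over the 9 arrays, by array, for the summed fibroblast markers with Mmp2, Mmp3, Adamts1, Adamts5 and Timp3 (left) and the summed neutrophil markers with Mmp8, Mmp9 and Mmp25 (right). On the left the 3 high arrays stand above the others for the markers and for Mmp2; on the right low replicate 3 has the highest summed neutrophil markers (11.40) and the highest Mmp9 (6.57), while Mmp8 is lowest in the low gate.

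The collagenase Mmp8, known as neutrophil collagenase, was higher in the Ly6C high and medium gates than in low. It stood at 7.89, 8.00 and 8.52 in high, 7.57, 7.31 and 7.62 in medium and 5.16, 4.72 and 6.18 in low, and none of the 3 gates overlapped. Low was 6.89-fold below high (log2 difference -2.78, SE 0.33, limma adjusted p = 0.00222) and 4.43-fold below medium (-2.15, SE 0.33, limma adjusted p = 0.0175). The difference from medium missed the threshold when low 1, low 2, medium 1 or medium 3 was left out (highest limma adjusted p 0.0727, without medium 3), and with only low and medium in the fit (0.0533). Medium and high differed by -0.64 (limma adjusted p = 0.712). Low replicate 3, which had the highest neutrophil markers of all arrays and the highest classical monocyte markers of the low arrays, was the low array nearest to high for Mmp8. Without it the differences were -3.20 from high and -2.56 from medium (limma adjusted p = 0.000532 and 0.00340). The median difference of the neutrophil list between low and high was 0.125, with Retnlg higher and Csf3r and Padi4 lower past the threshold. S100a8, an alarmin gene of neutrophils and monocytes, was at 7.47, 9.08 and 8.73. Of the classical monocyte list, 6 of 9 measured markers were lower in low than in high and 0 higher (median -2.11). Ly6c2 is among those 6, and its fall follows from the sort on its protein. The part of neutrophil or monocyte RNA in the Mmp8 difference was not tested.

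Mmp13, also a collagenase, had wide spread between replicates in every gate. It was at 6.86, 6.48 and 8.16 in high, 6.77, 6.66 and 8.23 in medium and 5.68, 5.04 and 6.74 in low. Replicate 3 was the brightest array of every gate, and the gates overlapped. Low was 2.54-fold below high (-1.35, SE 0.58, limma adjusted p = 0.268) and 2.64-fold below medium (limma adjusted p = 0.319), neither past the threshold. With a replicate block in the fit both passed (limma adjusted p = 0.00166 and 0.0031), but the labels do not say that a replicate number pairs the arrays. Low replicate 3, the low array with the most monocyte marker signal, was the brightest low array for Mmp13, and without it the differences were -1.81 and -1.86 (limma adjusted p = 0.145 and 0.181).

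Gelatinase B (Mmp9) and the membrane-anchored Mmp25, both known from neutrophils, had their highest means in Ly6C low. Mmp9 was at 4.58, 4.75 and 4.82 in high, 5.18, 5.18 and 5.43 in medium and 5.18, 5.46 and 6.57 in low. The low arrays did not overlap with high (1.02, SE 0.30, limma adjusted p = 0.0945), and without low replicate 3 the difference was smaller, 0.60, and passed the threshold (limma adjusted p = 0.0475). The summed neutrophil markers were also highest on low replicate 3 (11.40). Ly6g was instead highest on low replicate 2 (4.61, against 3.28 on low replicate 3). Mmp25 stood at 5.54, 5.60 and 5.80 in high, 4.97, 5.50 and 5.77 in medium and 6.22, 6.58 and 6.42 in low. All low arrays were above all others. Low was 1.99-fold above medium (0.99, SE 0.20, limma adjusted p = 0.0418), which held without medium replicate 3 and missed the threshold without any other array (highest limma adjusted p 0.137, without low 2). It also missed the threshold with only low and medium in the fit (limma adjusted p = 0.1001). Against high the difference was 0.76 (limma adjusted p = 0.0590, and 0.0377 with only low and high in the fit). The neutrophil list as a whole did not move in 1 direction between low and high, with Retnlg higher and Csf3r and Padi4 lower. Its part in the Mmp25 and Mmp9 values was not tested.

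**Figure D4:**
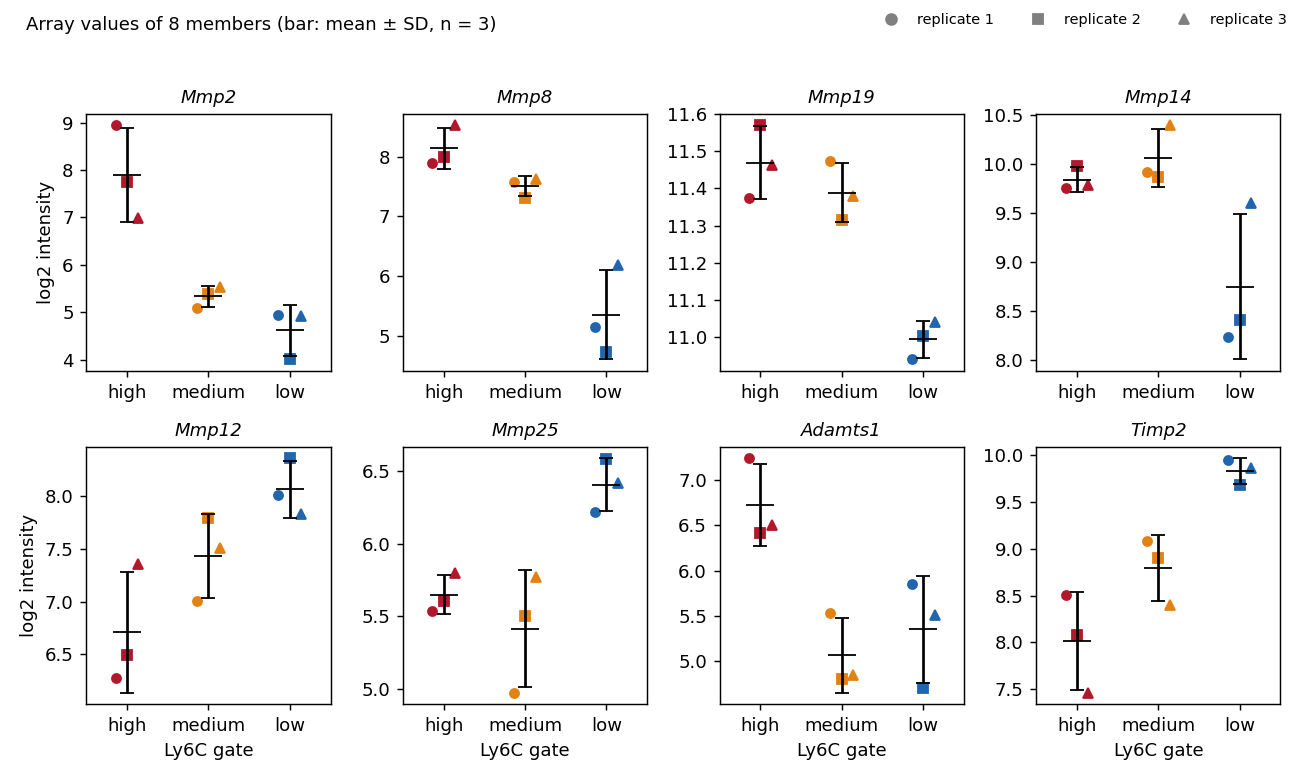
Log2 intensity of 8 members on every array by Ly6C gate, with markers for the replicate number, a bar at the mean and whiskers for the SD (n = 3); each panel has its own y axis. Mmp2 and Adamts1 stand apart in high, Mmp8, Mmp19 and Mmp14 are lowest in low, and Mmp12, Mmp25 and Timp2 are highest there.

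The macrophage elastase Mmp12 rose toward Ly6C low. Its values were 6.28, 6.50 and 7.36 in high, 7.01, 7.79 and 7.50 in medium and 8.01, 8.36 and 7.82 in low. The low arrays were above all others, and high and medium overlapped through high replicate 3. Low was 2.56-fold above high (1.36, SE 0.30, limma adjusted p = 0.0320). That missed the threshold when high 1, high 2, low 1, low 2 or medium 3 was left out (highest limma adjusted p 0.115, without low 2), and with only low and high in the fit (0.0727). Medium lay between the gates, 0.72 above high (limma adjusted p = 0.609) and 0.63 below low (limma adjusted p = 0.394). In the F test Mmp12 missed the threshold (limma adjusted p = 0.0813). Tissue macrophage markers were higher in low with it, 10 of 12 past the threshold and 0 lower (median 1.38). Dendritic cell markers were also higher, 6 of 10 measured (median 1.83). The part of these cells in the Mmp12 value was not tested.

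Mmp19 was lower in Ly6C low than in high, and the membrane-type enzyme Mmp14 had its lowest arrays there. Mmp19 stood at 11.37, 11.57 and 11.46 in high, 11.47, 11.31 and 11.38 in medium and 10.94, 11.00 and 11.04 in low. The low arrays were below all others. Low was 1.39-fold below high (-0.47, SE 0.09, limma adjusted p = 0.0221), and its difference from medium missed the threshold (-0.39, limma adjusted p = 0.0817). The difference from high missed the threshold when high 2, high 3, low 1 or low 2 was left out (highest limma adjusted p 0.0802, without low 1), and with only low and high in the fit (0.0531). Mmp14, which activates the Mmp2 precursor at the cell surface, was at 9.76, 9.98 and 9.79 in high, 9.92, 9.87 and 10.40 in medium and 8.24, 8.41 and 9.60 in low. Every low array was below every other array, with low replicate 3, the low array with the most monocyte marker signal, nearest to the others. The differences of -1.09 from high (limma adjusted p = 0.0908) and -1.31 from medium (limma adjusted p = 0.0839) were not past the threshold. Without low replicate 3 both passed (limma adjusted p = 0.00408 and 0.00523).

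Among the inhibitors, Timp2 rose in Ly6C low and the others did not pass a test. Timp2, which blocks Mmp2 and also takes part in its activation by Mmp14, stood at 8.50, 8.08 and 7.47 in high, 9.08, 8.90 and 8.40 in medium and 9.94, 9.68 and 9.86 in low. Low was above all other arrays, while medium and high overlapped only between medium replicate 3 and high replicate 1. Low was 3.51-fold above high (1.81, SE 0.26, limma adjusted p = 0.00503) and 2.05-fold above medium (1.03, limma adjusted p = 0.0916). Tissue macrophage markers were higher in low with Timp2 (log2 sums of 13.83 to 14.14, against 12.16 to 12.70 in high). So were dendritic cell markers (11.21 to 11.62, against 8.58 to 9.02) and eosinophil markers (7.45 to 7.77, against 6.44 to 6.66). The part of these cells in the Timp2 difference was not tested. Between high and low, Timp2 and Mmp2 differed in opposite directions (1.81 and -3.28 on the log2 scale).

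Timp1, an inhibitor that wound cells induce, was at 10.06, 9.72 and 9.73 in high, 8.89, 9.73 and 9.70 in medium and 9.75, 10.08 and 9.81 in low. Low and high differed by 0.05, with a 95% interval from -0.45 to 0.55 (limma adjusted p = 0.960). Timp3, which binds to the matrix, was at 6.72, 6.99 and 5.32 in high, 4.47, 4.74 and 4.51 in medium and 5.97, 5.50 and 4.31 in low. Medium did not overlap with high (-1.77, limma adjusted p = 0.363), and low spread across both. Low differed from high by -1.08 (limma adjusted p = 0.289), and by -0.61 without low replicate 3 (limma adjusted p = 0.5975). Timp4 stayed between 3.04 and 3.46 on all arrays and below the array median.

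The other 29 members, 13 Mmp and 16 Adamts genes, gave no call. Their log2 differences of low from high ran from -0.73 for Adamts4 to 0.63 for Adamts14. The 5 with the smallest adjusted p in the F test were Adamts4 (0.0772), Adamts14 (0.196), Mmp27 (0.246), Mmp23 (0.292) and Adamts10 (0.513), all from limma. Adamts14, a procollagen proteinase, was at 3.62, 4.06 and 3.82 in high and 4.49, 4.12 and 4.78 in low without overlap (limma adjusted p = 0.0924). Its other probe set differed by only 0.17. Mmp23 was at 5.14, 4.76 and 5.14 in high and 3.99, 4.72 and 4.40 in low (-0.64, limma adjusted p = 0.143).

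Comparisons with Ly6C medium gave few calls. Between medium and high limma called 0 of 44 members (0%, against 0.239% of all genes, 0.0406% higher and 0.198% lower in medium), with 7 at an unadjusted p under 0.05 against 7.53% of all genes. Those 7 were Adamts1, Adamts4, Mmp12, Mmp2, Mmp3, Timp2 and Timp3. The arrays did not overlap for 6 members (10.7% of all genes), with Mmp9 higher (5.77% of all genes) and Adamts1, Adamts4, Mmp2, Mmp8 and Timp3 lower in medium (4.93%). Between low and medium 2 members were called (4.55%, against 1.93%), Mmp25 higher (1.38% of all genes) and Mmp8 lower (0.541%). With quantile normalization repeated or arrays centred, only Mmp8 was called. The arrays of low and medium did not overlap for 9 members (16.8% of all genes), Mmp12, Mmp25, Timp1 and Timp2 higher in low (9.25%) and Mmp2, Mmp8, Mmp14, Mmp19 and Mmp27 lower (7.58%). These comparisons share the arrays of a gate and are not independent of the one between low and high.

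Genes that work with the enzymes were read from lists with 78 measured genes. Of the 17 activators and partners, among them the protease Furin, the urokinase Plau and its receptor Plaur, limma called 0 in each comparison. An unadjusted p under 0.05 was seen for 2, 1 and 2 (low against high, medium against high, low against medium). Over all genes 17.9%, 7.53% and 14.1% had such a p, and 5.67%, 0.239% and 1.93% were called. Of 14 measured inhibitors outside the Timp family, among them the membrane-anchored Reck, limma called 0, with 3, 1 and 1 at an unadjusted p under 0.05 in the same order and a median difference of -0.0790 between low and high.

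Of 15 genes in the ADAM list, 1 was higher and 1 lower in low than in high (3.35% and 2.32% of all genes were). The list also holds the secreted Adamdec1 and the Adam17 partners Rhbdf1 and Rhbdf2. Adam19 averaged 5.88 in high, 6.82 in medium and 8.45 in low, a rise of 5.91-fold from high to low (limma adjusted p = 0.00620). Adam8, a proteinase of myeloid cells, was 1.68-fold lower (10.29, 10.16 and 9.54, limma adjusted p = 0.0167). Among 5 ADAMTS-like proteins, which lack the proteinase domain, 1 was higher in low than in high (3.35% of all genes were) and 0 lower. It was Adamtsl5 (6.21 against 5.40, limma adjusted p = 0.0253). Of 7 genes in the astacin list, 2 were lower in low than in high (2.32% of all genes were) and 0 higher. These were the procollagen proteinase enhancers Pcolce and Pcolce2, lower by 5.39-fold and 2.96-fold (limma adjusted p = 0.00787 and 0.0130), together with the fibroblast markers.

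Of 20 matrix substrates measured, 6 were lower in low than in high and 0 higher (median -0.370), where 2.32% of all genes were lower. Fibroblast markers were lower in the same comparisons, 9 of 11 in low and 6 of 11 in medium against high, and their part in the substrate values was not tested. The marker calls in medium were fragile, as given above. The versican gene Vcan, a substrate of Adamts1, was at 10.34, 9.35 and 7.34 (a fold of 8.00 between high and low, limma adjusted p = 0.00485). Sparc, a collagen-binding glycoprotein, was at 9.17, 7.34 and 7.32, and fell already in medium (3.57-fold, limma adjusted p = 0.0176), as did the basement membrane collagen gene Col4a1 (limma adjusted p = 0.0269). The calls of Sparc and Col4a1 in medium were lost when high 2, medium 1, medium 2 or medium 3 was left out. They were also lost with only medium and high in the fit. Thbs1, which encodes thrombospondin 1, was at 12.36, 12.17 and 11.02, and low lay below high (limma adjusted p = 0.00286) and below medium (limma adjusted p = 0.0147). Its call against medium was lost without low 2, medium 1 or medium 3, and with only low and medium in the fit. Vcan is also in the classical monocyte list used here.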

How the data were processed

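Each array's file values are log2 intensities that the authors deposited, 1 per probe set, summarized by RMA per the submitters' processing notes; version, settings and genome build are not given in the sources used here. They were used as deposited, without a pseudocount or filter. Of 41345 probe sets, 23521 had 1 gene symbol. The probe set with the highest mean over the 9 arrays stood for a gene, which left 22180 genes. The RefSeq table (GRCm38.p6) gave names, gene order and promoters, found for 30 of 44 members. All arrays entered 1 limma 3.58.1 fit (R 4.3.3, lmFit and eBayes, two-sided, 6 residual degrees of freedom), with Benjamini-Hochberg adjustment over all genes and a threshold of 0.05. The fit was tested on simulated data with independent noise on every array. That run cannot show whether the real replicates were independent. Precision is limited by having 3 arrays per gate. The members and gene lists were chosen with earlier results of these data known.

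Each called member, the 4 Timp genes and a fixed set of other enzymes were named. Their values on every array were given, except for Timp4 and Adamts5, where a range stood for some or all arrays. Other members were summarized, with the 5 smallest F test p-values named. In each pathway list up to 4 called genes with the largest differences could be named, and in each marker list the brightest. Alternatives covered scaling, probe sets, filters on dim genes, the prior, array weights, a replicate block, the arrays in the fit and leaving out arrays.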

Additional observations from a re-analysis of the deposited data

How the results depend on the processing

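Leaving out 1 array at a time gave 3 to 7 called members between low and high, 0 to 2 between medium and high, 0 to 2 between low and medium and 2 to 5 in the F test. For all genes the ranges were 596 to 1243, 2 to 72 and 119 to 522, and for the pathway partners 6 to 13, 0 to 6 and 0 to 5.

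With only the 2 gates compared in the fit, the smaller number of arrays left 644, 1 and 211 genes called (low versus high, medium versus high, low versus medium), 6, 0 and 0 pathway partners, and 0 members between low and medium. Between low and high 4 members were called, with Adamts1, Mmp12 and Mmp19 lost and Mmp25 gained. Repeated quantile normalization, centred arrays and a trended and robust prior each left 1 member between low and medium. A filter at log2 6 gave 4 members there, and 1 between medium and high, as did the filter on the array median (Mmp2 in each). At log2 6, Mmp2 and Adamts1 passed the filter only through their high arrays, and Mmp25 only through its low arrays. That filter thus drew on the differences it was used to test, and their calls under it are no separate support. Pathway partners between low and medium numbered 2 with quantile normalization repeated, 3 with the mean of all probe sets, 4 with the median filter, 5 with the log2 6 filter, 2 with the trended prior and 5 with array weights, against 1; between medium and high the trended prior left 1 of 2. Where no construction explains it, the cause was not tested.

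The replicate number did not pair the arrays by the labels: deviations of arrays of the same number correlated at -0.0166 to 0.309, over 0.1 in 4 of 9 pairs, and the best match had the same number in 11 of 18 cases. The fit with a replicate block called 11 members between low and high, 1 between medium and high (Adamts1) and 5 between low and medium, and 1 and 2 pathway partners in the last comparisons. Its added calls between low and high were Mmp3, Mmp9, Mmp13, Mmp14 and Mmp25, and Mmp13 was called against both gates (limma adjusted p = 0.00166 from high and 0.0031 from medium).

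Among differences that were not called, the sign of Adamts5 between low and medium turned with quantile normalization repeated (0.0390), centred arrays (0.00980) and array weights (0.00561), and that of Timp4 with quantile normalization (0.0327). Without 1 array at a time the differences ran from -0.102 to 0.0777 (Adamts5), -0.0449 to 0.0109 (Timp4) and -0.559 to 0.184 (Mmp3) between low and medium, from -0.449 to 0.55 (Mmp13) and -0.0573 to 0.153 (Timp4) between medium and high, and from -0.0514 to 0.161 (Timp1) and -0.0745 to 0.136 (Timp4) between low and high. No called member changed sign in any setting.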
